A study of Mus musculus with 4 samples.

Results

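The genes examined were 10 solute transport genes of the kidney proximal tubule, called transporters below: the phosphate carriers Slc34a1 and Slc34a3, the glucose carriers Slc5a2, Slc5a1 and Slc2a2, the lactate carrier Slc5a12, the dicarboxylate carrier Slc13a3, and the amino acid transport genes Slc6a19, Slc7a9 and Slc3a1. They were chosen by name from the 54532 Ensembl genes listed for each library, and all 10 had a row in the files. RNA came from kidneys of WT mice and of mice carrying a CRISPR-Cas9 deletion of exons within Zbp1 (ZBP1-KO), each genotype represented by 2 libraries (4 in all). Every mouse was of the C57BL/6J background, was given 500 µL of pristane intraperitoneally when 8 weeks old, and was sacrificed 8 months after that injection. The study describes the mice of this pristane experiment as female. Pristane is a hydrocarbon oil that induces lupus-like disease, and since all 4 kidneys came from injected mice, any effect of pristane itself was not measured here. The deletion is present in the whole animal. No label says which litter or processing day a kidney came from. The p-values rest on these 4 libraries only and set the genotype difference against the spread between libraries within a genotype.

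The proximal tubule takes back most of the glucose, phosphate and amino acids that the glomerulus filters. Many carriers of the brush border couple the uptake of these solutes to the sodium gradient, and carriers of the opposite, basolateral membrane pass them on to the blood. The carriers are arranged along the tubule. Slc5a2 (SGLT2), a high-capacity glucose cotransporter, is found in the early convoluted part, while Slc5a1 (SGLT1), a high-affinity glucose cotransporter, is found mainly in the late straight part. Slc3a1 (rBAT) and Slc7a9 pair to form the cystine carrier, and loss of either causes cystinuria. Expression of many of these genes depends on the nuclear factor Hnf4a.

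The kidney identity and the genotype of the libraries were examined before the transporters. Total counts ranged from 9878776 to 12921925 per library, of which 49.5% to 61.5% fell on mitochondrially encoded genes. Zbp1 counts were 94 and 125 in WT, 18 in ZBP1-KO 1 and 0 in ZBP1-KO 2, so both knockouts lay below both WT kidneys. Markers of the proximal tubule were abundant in every kidney, with Lrp2, the endocytic receptor megalin, at 262 to 337 CPM, the count relative to a library size scaled by TMM (trimmed mean of M-values). Xist, expressed from the inactive X chromosome of females, measured 321 to 512 CPM, and 4 genes of the Y chromosome together had 6 counts in WT 1 and 0 in the other libraries. The replicates of ZBP1-KO were unlike each other in the transporters, and ZBP1-KO 1 stood apart. It was also the library with the lowest mitochondrial share (49.5%), the highest scaling factor (1.186, against 0.906 to 0.988 in the others) and the remaining Zbp1 counts. Log2 fold changes of the transporters are therefore given with and without ZBP1-KO 1. Those of other genes and lists are given with all libraries only. The part of these library differences in the results was not tested.

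RefSeq promoter sequences on the GRCm38.p6 build were found for 8 of the 10 genes. Slc5a2 and Slc5a12 had no entry. Stretches of 130 bases ending just before the start site are shown for Slc34a1, which had the highest level of the set, and for Slc3a1, which departed from the others between libraries. Capitals mark the letters of an HNF4 site (CAAAGTCCA) or a TATA box (TATAAA) on either strand; the stretch of Slc34a1 holds neither, and the rightmost run in Slc3a1 is a pair of overlapping TATA matches on opposite strands.
Slc34a1, chr13:55399518-55399647, plus strand: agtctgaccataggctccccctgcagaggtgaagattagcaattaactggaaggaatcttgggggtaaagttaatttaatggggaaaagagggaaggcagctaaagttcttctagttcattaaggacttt
Slc3a1, chr17:85028217-85028346, plus strand: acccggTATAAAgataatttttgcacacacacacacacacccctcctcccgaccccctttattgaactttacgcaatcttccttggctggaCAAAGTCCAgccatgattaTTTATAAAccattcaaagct
The HNF4 site was found in the promoter of Slc3a1 and in 0.475% of all 32851 promoters of 300 bases. TATA matches were present in Slc34a1 and Slc3a1, that of Slc34a1 lying after the start, and in 13.6% of all promoters. These are matches of letters only.

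Slc34a1 was by far the most abundant of the 10 genes. Per kilobase of exon it measured 186 ± 49.5 CPM per kb (SD, n = 4 libraries of both genotypes), with values of 113 to 221. Slc13a3 followed with 27.7 ± 6.07 and Slc7a9 with 20.1 ± 5.23 CPM per kb. Slc34a1 was the only gene whose lowest library lay above the highest library of the next gene in this order. The amino acid and glucose genes Slc5a2 (11.3 ± 5.86), Slc3a1 (9.93 ± 2.15) and Slc6a19 (6.09 ± 3.49 CPM per kb) came next. Slc34a3 (5.26 ± 2.41), Slc5a1 (3.43 ± 0.901), Slc5a12 (3.08 ± 1.66) and Slc2a2 (2.77 ± 0.855 CPM per kb) had the lowest levels. From Slc13a3 downwards each gene's range over the libraries overlapped that of the next. Compared within each library, Slc7a9 lay above Slc5a2 and Slc3a1 above Slc6a19 in 4 of 4 libraries, whereas the other neighbours kept this order in 2 or 3 of 4 only. Of all counts on the 10 genes, Slc34a1 took between 69.6% and 75.4% in each library.

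**Figure D1:**
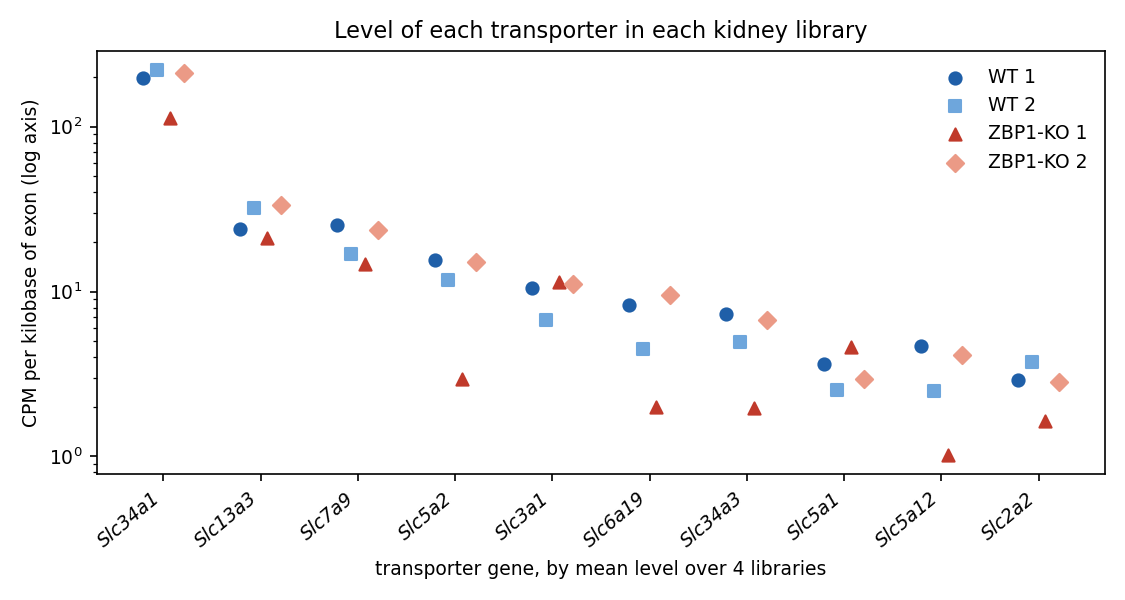
Level of each transporter in each of the 4 kidney libraries, in CPM per kilobase of exon on a log axis, with genes ordered by mean level and each point 1 library. Slc34a1 lies above all other genes in every library, and the ZBP1-KO 1 triangle is the lowest point for 8 of the 10 genes.

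The comparison of genotypes asked whether loss of Zbp1 altered the transporters of the pristane-exposed kidney. None of the 10 was called in either direction by the edgeR quasi-likelihood test (adjusted p = 0.999 for each, adjusted over all 14908 genes tested), where 0.0134% of all genes tested were called. At an unadjusted p under 0.05 the count was likewise 0 of 10, where 3.88% of all genes tested passed, and DESeq2 and the exact test of edgeR also gave 0 of 10 at that level. All 10 passed the filter on low counts. The deleted gene Zbp1 was itself not called by this edgeR test (log2 fold change −3.64 ± 0.89, SE, adjusted p = 0.999). The lack of a call therefore does not show that a gene was unchanged. Fitted log2 fold changes of ZBP1-KO over WT ran from −0.61 to 0.38, with a median of −0.26 against −0.01 over all genes tested, and were below 0 for 8 of the 10 genes (50.6% of all genes). Without ZBP1-KO 1 the direction turned, with a median of 0.15 and 2 of the 10 genes below 0. That library was singled out on these same values, being the lowest for 8 of the 10 genes. A rise on leaving it out was therefore set in advance and is a description only, here and for the single genes below. Genotypes did not overlap for 2 of the 10 genes, 1 in each direction, and this held for 32.3% of all genes. In whole kidney, fewer proximal tubule cells and less RNA per cell cannot be told apart.

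Slc34a1 (ENSMUSG00000021490, chromosome 13, 55398187 to 55415592, plus strand, in GENCODE M21 on GRCm38) encodes NaPi-IIa, the main phosphate cotransporter of the brush border. It measured 923 and 1032 CPM in WT against 529 and 995 CPM in ZBP1-KO. ZBP1-KO 1 was low, while ZBP1-KO 2 lay between the WT kidneys. The log2 fold change was −0.36 ± 0.26 (SE), with a 95% interval of −0.92 to 0.20, and it was 0.02 without ZBP1-KO 1. Exons of Slc34a1 share 545 bases with Pfn3 on the opposite strand, and Pfn3 had 0 counts in every library. Slc34a3 (ENSMUSG00000006469, chromosome 2, 25228898 to 25234364, minus strand) encodes NaPi-IIc, a second brush border phosphate carrier. It measured 17.3 and 11.7 CPM in WT against 4.65 and 15.9 CPM in ZBP1-KO. Again ZBP1-KO 1 alone was low, at 63 counts against 137 to 215 in the other libraries. The log2 fold change of Slc34a3 was −0.51 ± 0.48 (SE), and 0.13 without ZBP1-KO 1.

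Slc5a2 (ENSMUSG00000030781, chromosome 7, 128265657 to 128272430, plus strand), the target of the gliflozin drugs, measured 45.0 and 33.9 CPM in WT against 8.48 and 44.0 CPM in ZBP1-KO. The low ZBP1-KO 1 value rested on 115 counts, with a 95% exact Poisson interval of 7.0 to 10.2 CPM, and the interval of the lowest other library, WT 2, was 30.6 to 37.4 CPM. ZBP1-KO 2 lay between the WT values. Its log2 fold change of −0.61 ± 0.51 (SE) was the most negative of the set, with a 95% interval of −1.72 to 0.51, and it was 0.15 without ZBP1-KO 1. Exons of Slc5a2 share 597 bases with BC017158 on the opposite strand, which had 150 to 203 counts per library. In contrast, Slc5a1 (ENSMUSG00000011034, chromosome 5, 33104219 to 33162870, plus strand) measured 14.9 and 10.4 CPM in WT against 18.9 and 12.1 CPM in ZBP1-KO. Here ZBP1-KO 1 was the highest library and the genotypes overlapped. The log2 fold change was 0.29 ± 0.33 (SE), and −0.08 without ZBP1-KO 1.

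Slc2a2 (ENSMUSG00000027690, chromosome 3, 28697903 to 28731359, plus strand) encodes GLUT2, the basolateral carrier through which glucose leaves the early tubule cell. It measured 16.8 and 21.4 CPM in WT against 9.44 and 16.2 CPM in ZBP1-KO. Both knockouts lay below both WT kidneys, although ZBP1-KO 2 differed from WT 1 by less than counting error, with 95% exact Poisson intervals of 13.7 to 19.0 and 14.6 to 19.2 CPM. The log2 fold change was −0.59 ± 0.32 (SE), with a 95% interval of −1.29 to 0.11, and it was −0.25 without ZBP1-KO 1. It was the only transporter that was below WT in both knockouts. Genes lower in both knockouts made up 16.3% of all genes tested.

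Slc5a12 (ENSMUSG00000041644, chromosome 2, 110597298 to 110647779, plus strand) encodes a sodium-coupled carrier of lactate and other monocarboxylates. It measured 19.0 and 10.1 CPM in WT against 4.13 and 16.8 CPM in ZBP1-KO. ZBP1-KO 1 was lowest, and the WT replicates themselves differed by 0.90 on the log2 scale. The log2 fold change of Slc5a12 was −0.50 ± 0.53 (SE), and 0.20 without ZBP1-KO 1. Slc13a3 (ENSMUSG00000018459, chromosome 2, 165405028 to 165473230, minus strand) encodes NaDC3, a basolateral carrier of succinate and other dicarboxylates. It measured 125 and 167 CPM in WT against 111 and 175 CPM in ZBP1-KO. The knockouts enclosed the WT values, and the log2 fold change was −0.03 ± 0.24 (SE), with a 95% interval of −0.55 to 0.49, and 0.26 without ZBP1-KO 1. Of the 3 transporters on the chromosome of Zbp1, Slc13a3 lay nearest to it, at 7.7 Mb.

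Among the amino acid transport genes, Slc6a19 (ENSMUSG00000021565, chromosome 13, 73679745 to 73704865, minus strand) encodes B0AT1, the brush border carrier of neutral amino acids whose loss causes Hartnup disorder, and it measured 41.7 and 22.4 CPM in WT against 10 and 47.9 CPM in ZBP1-KO. The knockouts held both the lowest and the highest value, and the log2 fold change was −0.16 ± 0.52 (SE) and 0.57 without ZBP1-KO 1. Slc7a9 (ENSMUSG00000030492, chromosome 7, 35448796 to 35466036, plus strand), the light subunit of the cystine carrier, measured 68.4 and 45.0 CPM in WT against 39.2 and 62.9 CPM in ZBP1-KO. Genotypes overlapped, with a log2 fold change of −0.16 ± 0.27 (SE), and 0.14 without ZBP1-KO 1. Slc3a1 (ENSMUSG00000024131, chromosome 17, 85028376 to 85064236, plus strand), its heavy subunit, measured 23.9 and 15.3 CPM in WT against 25.9 and 25.1 CPM in ZBP1-KO. Both knockouts lay above both WT kidneys, as for 16% of all genes, and WT 2 alone was clearly low. The log2 fold change of Slc3a1 was 0.38 ± 0.27 (SE), with a 95% interval of −0.21 to 0.96, and it was 0.35 without ZBP1-KO 1. Exons of Slc3a1 share 601 bases with Prepl on the opposite strand, which had 325 to 494 counts per library, and reads from that overlap cannot be assigned without strand.

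**Figure D2:**
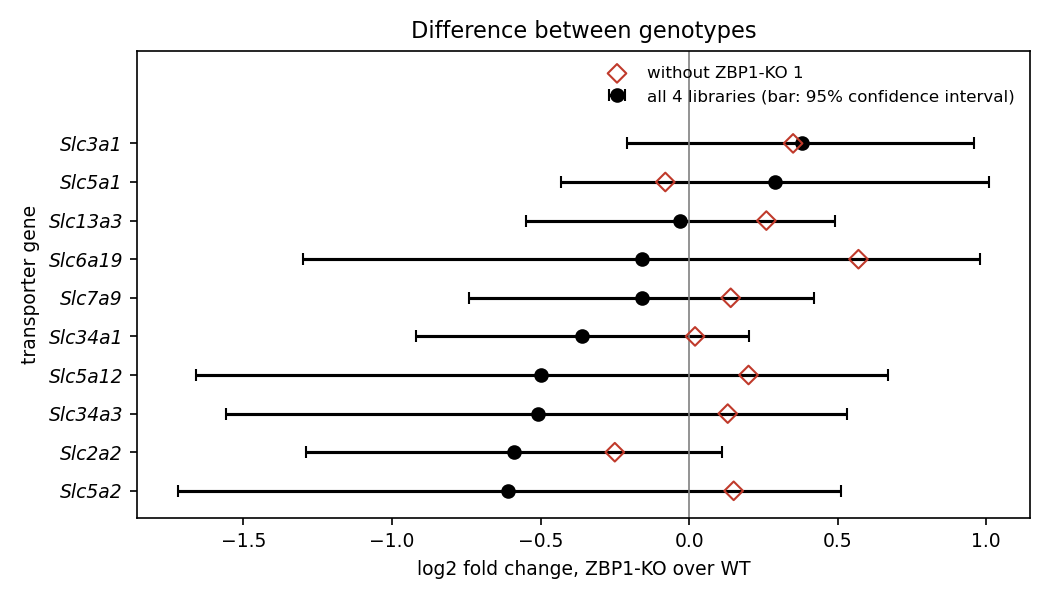
Log2 fold change of ZBP1-KO over WT for each transporter from the edgeR fit to all 4 libraries (black points, bars are 95% confidence intervals) and without ZBP1-KO 1 (open diamonds). Every interval includes 0, and without ZBP1-KO 1 the values of 8 of the 10 genes are above 0. That library was singled out because it was low in most of these same genes.

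For 9 of the 10 transporters, all but Slc3a1, the ZBP1-KO replicates differed by more on the log2 scale than the genotypes did. The WT replicates also differed by more than the genotypes for 7 of the 10. The share of all genes for which this held was not computed, so these counts cannot be called particular to the transporters. ZBP1-KO 1 held the lowest value of the 4 libraries for 8 of the 10 transporters, where 27.5% of all genes tested had their lowest value there, or 26.6% of the 8207 genes with a mean of at least 10 CPM. The log2 ratio of ZBP1-KO 1 to ZBP1-KO 2 was −2.35 for Slc5a2, −2.24 for Slc6a19, −1.98 for Slc5a12 and −1.74 for Slc34a3. These 4 genes were thus below −1, as were 1.74% of the genes with a mean of at least 10 CPM. It was −0.91 for Slc34a1, −0.77 for Slc2a2, −0.68 for Slc7a9 and −0.67 for Slc13a3. Only Slc3a1 (0.04) and Slc5a1 (0.64) were not lower in ZBP1-KO 1. Between the WT replicates, in contrast, log2 ratios of WT 1 to WT 2 ran from −0.42 to 0.90, and 0 of the 10 genes differed by more than 1 in either direction, as 1.72% of genes with a mean of at least 10 CPM did. Slc5a12 (0.90), Slc6a19 (0.89) and Slc3a1 (0.64) nevertheless lay above the 95th percentile of those genes in WT, which was 0.60. With 1 library showing it, this difference has no replicate check.

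**Figure D3:**
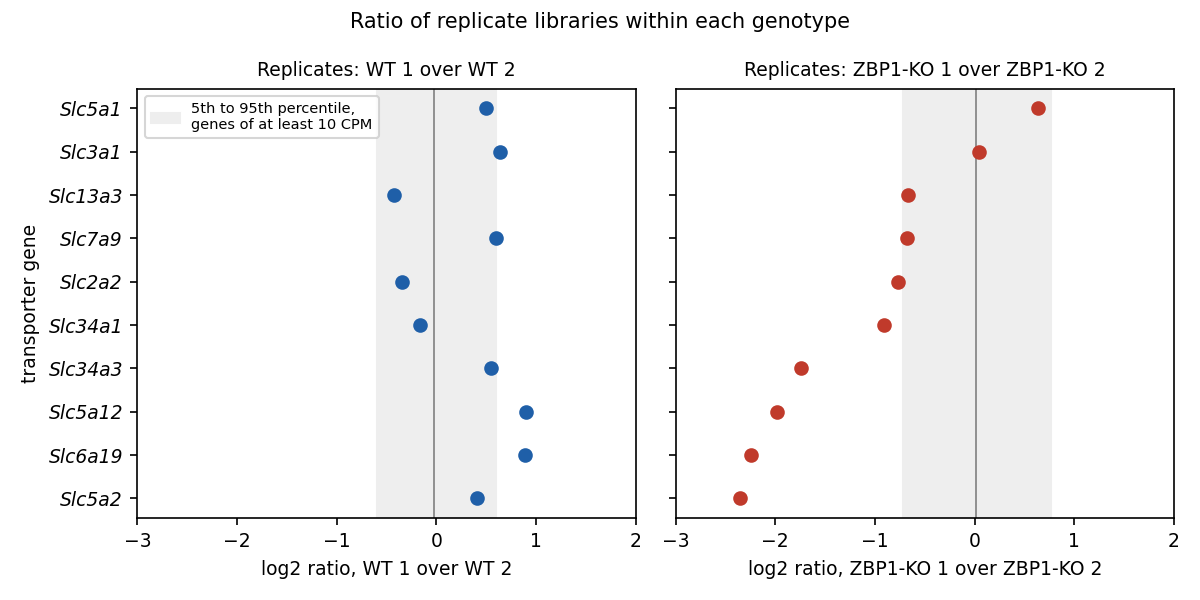
Log2 ratio of CPM between the 2 replicate libraries of WT (left) and of ZBP1-KO (right) for each transporter, with the grey band from the 5th to the 95th percentile of genes with a mean of at least 10 CPM. In ZBP1-KO, 6 transporters lie below the band, which begins at −0.72, while Slc3a1 and Slc5a1 are at or above 0.

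Ratios of raw counts within a library do not depend on scaling, and 5 pairs were read in this way. Since Slc5a1 and Slc3a1 were the members not lower in ZBP1-KO 1, a low ratio to either of them in that library repeats the values above. Counts of Slc5a2 exceeded those of the late-segment carrier Slc5a1 by 3.02-fold and 3.25-fold in WT and by 3.64-fold in ZBP1-KO 2. In ZBP1-KO 1 this ratio was 0.449, so that Slc5a1 had more counts than Slc5a2. The ratio of Slc2a2 to Slc5a1 was 1.13 and 2.05 in WT, 0.5 in ZBP1-KO 1 and 1.34 in ZBP1-KO 2. The ratio of Slc7a9 to its partner Slc3a1 was 2.86 and 2.94 in WT, 1.51 in ZBP1-KO 1 and 2.51 in ZBP1-KO 2. In each of these 3 pairs ZBP1-KO 1 was lowest. The ratio of Slc5a12 to Slc13a3 was 0.152 and 0.0604 in WT, 0.0374 in ZBP1-KO 1 and 0.0958 in ZBP1-KO 2. The ratio of the phosphate carriers, Slc34a1 to Slc34a3, ran the other way, at 53.4 and 88.1 in WT and 62.4 in ZBP1-KO 2 against 113.9 in ZBP1-KO 1, the highest library. The pairs were chosen after the values were seen.

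**Figure D4:**
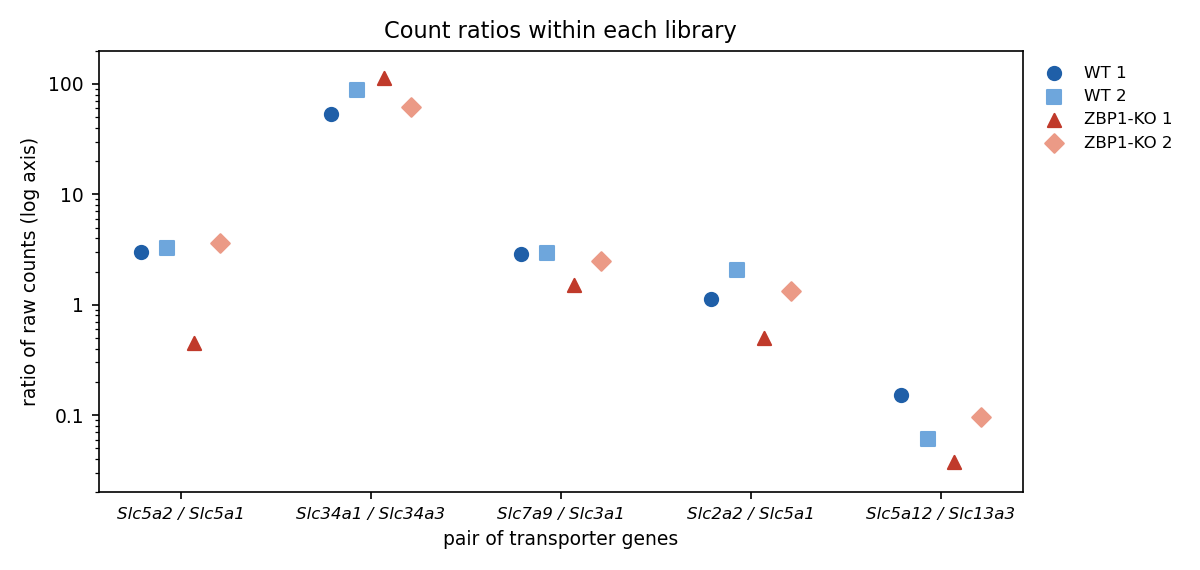
Ratio of raw counts of a pair of transporter genes within each library, on a log axis, with each point 1 library. ZBP1-KO 1 is the lowest point in 4 of the 5 pairs, at 0.449 for Slc5a2 over Slc5a1, where the other libraries are between 3.02 and 3.64, and the highest for Slc34a1 over Slc34a3, at 113.9.

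Other genes of proximal tubule transport were read from lists of the same fit. Of 10 genes for phosphate handling, 0 were called, 6 had their lowest value in ZBP1-KO 1, and the median log2 fold change was 0.04. Pth1r, the parathyroid hormone receptor, which lowers phosphate uptake, was the most abundant, at 143 and 172 CPM in WT against 169 and 183 CPM in ZBP1-KO. Xpr1, a phosphate exporter, had the largest difference without overlap, at 16.3 and 14.3 CPM in WT against 29.3 and 21.1 CPM in ZBP1-KO (log2 fold change 0.72 ± 0.27, SE), and was not called in edgeR (adjusted p = 0.999). Among 9 of 10 other sugar transport genes that passed the filter, 0 were called and the median was −0.14. Pdzk1ip1, which encodes the SGLT2 partner MAP17, measured 370 and 385 CPM in WT against 328 and 402 CPM in ZBP1-KO. Slc2a9, a urate carrier, measured 3.46 and 4.79 CPM in WT against 1.4 and 2.48 CPM in ZBP1-KO.

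Of 16 other amino acid transport genes, 15 passed the filter and 0 were called, with a median of −0.06. Slc6a18, a neutral amino acid carrier of the late proximal tubule, was more abundant than any listed partner, at 1217 and 783 CPM in WT against 966 and 1184 CPM in ZBP1-KO. Of 10 anion carriers and ion transport genes, 0 were called and the median was −0.05. The basolateral bicarbonate carrier Slc4a4 measured 23.5 and 22.3 CPM in WT against 26.0 and 33.9 CPM in ZBP1-KO.

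Of 10 transcription factor genes, 8 passed the filter and 0 were called. Hnf4a was lower in both knockouts, at 126 and 120 CPM against 147 and 146 CPM in WT, with a log2 fold change of −0.26 ± 0.18 (SE). Ppara, the fatty acid receptor, had the largest difference of this list, at 2.98 and 5.39 CPM in WT against 0.737 and 1.08 CPM in ZBP1-KO, which are 37, 63, 10 and 10 counts. Neither was called in edgeR (adjusted p = 0.999 for both).

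Segment and cell type markers were set beside the ZBP1-KO 1 pattern. The 10 other proximal tubule markers, among them Lrp2, Ggt1 and Miox, had summed levels of 2327 and 2476 CPM in WT against 2267 and 2583 CPM in ZBP1-KO 1 and 2, and a median log2 ratio of ZBP1-KO 1 to ZBP1-KO 2 of −0.28, against −0.84 for the transporters. Of these 10 markers, 6 had their lowest value in ZBP1-KO 1, against 8 of the 10 transporters. The median ratio was −0.09 for phosphate handling, −0.43 for other sugar, −0.08 for other amino acid and −0.17 for anion and ion transport genes. Within those lists, Slc13a1 (−1.6), Slc7a7 (−1.13) and Slc36a1 (−1.12) were below −1. Slc34a2 lay at 4.26, with 1 count in ZBP1-KO 2. The 4 tested markers of the late straight segment were instead higher in ZBP1-KO 1, with a median ratio of 0.39 and 0 of 4 lowest there. Their median log2 ratio of WT 1 to WT 2 was larger, at 0.63, and 1 of them, Cyp7b1, had only 7 to 31 counts. Thick ascending limb markers (median ratio 0.62) and inner medulla markers (0.61) were also higher in ZBP1-KO 1. All 5 fibroblast markers had their lowest value in ZBP1-KO 1, with summed levels of 534 and 398 CPM in WT against 278 and 427 CPM in ZBP1-KO 1 and 2. The median ratio was −0.20 for distal convoluted tubule, 0.19 for collecting duct principal cell, −0.15 for intercalated cell and 0.34 for endothelial markers. The part of segment shares in the transporter values was not tested.

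For 5 of the 14 marker lists the summed levels of the genotypes did not overlap, where 32.3% of all single genes tested did not. The count of lists was thus near that share. Fat markers had summed levels of 80.1 and 106 CPM in WT against 219 and 177 CPM in ZBP1-KO 1 and 2, with 5 of 6 genes tested, Lep at 0 counts in every library, and Cfd called higher (edgeR adjusted p = 0.00889). Leukocyte markers, 6 of 8 tested, summed to 331 and 343 CPM in WT against 536 and 441 CPM in ZBP1-KO. Most of that sum was Cd74, the MHC class II invariant chain, and without Cd74 the sums were 140 and 81.4 CPM in WT against 135 and 131 CPM in ZBP1-KO and overlapped. Podocyte markers summed to 102 and 104 CPM in WT against 129 and 150 CPM in ZBP1-KO. Collecting duct principal cell markers had lower sums, at 1309 and 1407 CPM in WT against 1116 and 895 CPM in ZBP1-KO 1 and 2. Most of each sum was Aqp2, at 903 and 1061 CPM in WT against 730 and 530 CPM in ZBP1-KO. Of the 5 genes, 2, the water channels Aqp2 and Aqp3, were lower in both knockouts and 0 were called. Fxyd4 (log2 fold change −0.03), Hsd11b2 (0.32) and Scnn1g (−0.23) overlapped between genotypes. Immediate-early genes were lower in both knockouts for 8 of 8 genes, where 16.3% of all genes were, with 389 and 130 CPM in WT against 90.5 and 89.3 CPM in ZBP1-KO. None of the 8 was called in edgeR (adjusted p = 0.946 to 0.999), and 7 of them had an unadjusted p under 0.05. Of 8 tubular injury genes, Havcr1 (KIM-1), Krt20 and Sox9 were below the filter, with at most 13 counts in a library, and the other 5 had a median log2 fold change of 0.18. Whether any of these differences bears on the transporters was not tested.

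The genes most like the mean profile of the 10 transporters were found among 8197 other genes with a mean of at least 10 CPM, by the root mean square difference of centred log2 CPM over the 4 libraries. That profile was 0.35 and −0.01 in WT, −0.71 in ZBP1-KO 1 and 0.36 in ZBP1-KO 2. The nearest 5 were Gnptg (difference 0.040), Vnn1 (0.059), Vim (0.078), Pipox (0.089) and Anapc7 (0.090). Gnptg, the nearest, measured 39.1 and 31.8 CPM in WT against 18.2 and 38.3 CPM in ZBP1-KO. Vnn1, a pantetheinase, measured 23.0 and 18.2 CPM in WT against 10.8 and 21.1 CPM in ZBP1-KO. Values of Vim were 122.7 and 97.3 CPM in WT against 67 and 123.4 CPM in ZBP1-KO. Pipox, a peroxisomal sarcosine oxidase, measured 78.8 and 67.6 CPM in WT against 35.2 and 83.9 CPM in ZBP1-KO. Those of Anapc7 were 26.4 and 23 CPM in WT against 11.8 and 27 CPM in ZBP1-KO.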

How the data were processed

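Per the labels and the study's methods, polyadenylated RNA from kidney was made into TruSeq libraries and sequenced as read pairs. The authors trimmed reads with Trimmomatic, aligned them with HISAT2 (build mm10 in the submitters' processing notes) and deposited whole-number counts of uniquely mapped pairs per Ensembl gene from featureCounts. Annotation release, program versions and the strand setting are not given in the sources used here. Of 54532 IDs, 54495 matched GENCODE M21 (GRCm38).

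The test was the two-sided quasi-likelihood F test of edgeR 4.0.16 (R 4.3.3) on the counts, after filterByExpr (minimum count 10, total 15) and TMM, with genotype as the only term and Benjamini-Hochberg adjustment over 14908 genes. Calls were made at an adjusted p under 0.05. SE is the absolute log2 fold change over the square root of F. CPM per kb divides CPM by the merged exon length. A log2 ratio between libraries used a prior count of 2. Poisson intervals cover counting error only. In a library, 3 counts correspond to 0.221 to 0.323 CPM.

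The transporters and lists were chosen with earlier results of these data known. From each transport, regulator and marker list the rule named the most abundant gene, called genes, and the largest difference without overlap. Some genes named by this rule are not reported here. Marker lists are given mainly as sums. Lrp2, Ggt1, Lep, Cd74, the collecting duct genes and the injury genes were named after their values were seen. The same holds for Slc13a1, Slc7a7, Slc36a1 and Slc34a2. The list entry Tmem27 was read as Cltrn. Alternatives were other scalings and filters, mitochondrial genes left out, a replicate block, the exact test, DESeq2 1.42.0 and each library left out.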

Additional observations from a re-analysis of the deposited data

How the results depend on the processing

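With all 4 libraries, 0 of the 10 transporters were called in either direction under every scaling, filter and test tried, and their median log2 fold change stayed between −0.44 and −0.25. At an unadjusted p under 0.05 the count of transporters was 1 when every gene with at least 1 count was kept and 2 with the replicate block, all lower, and 0 in the other settings with all libraries. Scaling moved the median of all genes by less than 0.1. The number of genes called across all genes was 2, and became 41 when every gene with at least 1 count was kept, 4 without mitochondrially encoded genes, 11 with the replicate block, 14 with the exact test and 9 with DESeq2. In the setting with 41 calls the number of genes tested was 22065. The cause was not tested for any of these changes.

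The libraries decided the direction. With 1 library left out, the remaining library of that genotype was assumed to vary like the other genotype. All-gene calls then ran from 0 (without WT 1) to 37 (without ZBP1-KO 2), with 20 without WT 2 and 8 without ZBP1-KO 1. Transporters called lower ran from 0 to 2, transporters called higher stayed at 0, and their median log2 fold change ran from −0.96 to 0.15. Both calls came without ZBP1-KO 2, where the remaining knockout was ZBP1-KO 1: Slc5a2 (−2.22, edgeR adjusted p = 0.00079) and Slc6a19 (−1.68, edgeR adjusted p = 0.0467). The sign changed for 8 of the 10 transporters, both of these among them. Ranges over the left-out libraries were −0.41 to 0.26 for Slc13a3, −0.89 to 0.02 for Slc34a1, −1.65 to 0.13 for Slc34a3, −0.08 to 0.57 for Slc5a1, −1.82 to 0.20 for Slc5a12, −2.22 to 0.15 for Slc5a2, −1.68 to 0.57 for Slc6a19 and −0.54 to 0.17 for Slc7a9. Slc2a2 (−1.02 to −0.25) and Slc3a1 (0.09 to 0.73) kept their sign.

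With the replicate block, Slc5a2 went from −0.61 to −0.97 and Slc6a19 from −0.16 to −0.45, neither called. Across genes, same-numbered libraries deviated from their genotype means with a correlation of 0.00399, and the labels give no pairing. With 2 libraries a genotype, intervals as wide as −1.66 to 0.67 (Slc5a12) leave sizeable differences undetectable.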
